A study of Gossypium hirsutum with 16 samples.

Results

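Chromosome D07 is 1 of the 13 chromosomes of the D subgenome of upland cotton (Gossypium hirsutum). Its genes were compared here between a pair of strains with different fruiting branches and between control and silenced plants. Members were all gene IDs of the deposited expression table that begin with Gh_D07G and a number, with at least 0.5 FPKM in at least 4 of the 16 libraries. FPKM is a fragment count per gene, divided by transcript length and by the size of the library. Of 2223 D07 IDs listed, 1812 passed, among 55040 genes that passed in the whole table and 22848 on the other 12 D chromosomes. The other 411 D07 IDs were not tested. Of these, 317 stayed below 0.5 FPKM in every library and 94 reached it in 1 to 3 libraries. The last IDs inside the limit were Gh_D07G117000 and Gh_D07G003600, whose fourth-highest values were 0.5001 and 0.507 FPKM, and the first outside it were Gh_D07G099600 and Gh_D07G165000, at 0.4996 and 0.4995 FPKM.

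Messenger RNA of the shoot apex of cotton seedlings was measured in 4 groups of 4 libraries. Strain 3798 is labelled nulliplex-branch, and Jinxian-short branch (JX below) is labelled as having short fruit branches. From each strain there was a control group and a group in which GhBRC1 was silenced by VIGS, virus-induced gene silencing. What the controls received is not given in the sources used here, and the same holds for the origin of replicates (separate plants or not). The p-values then reflect only how far these libraries scatter, which may be partly technical. FPKM totals were 552185 to 603167 per library, and the depth in reads is unknown.

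Fruiting branches of cotton grow from axillary buds, and their length and number of nodes set the shape of the plant. BRC1 genes encode TCP-family transcription factors that restrain the outgrowth of axillary buds in many plants. In VIGS, a virus engineered to hold part of the target transcript triggers RNA silencing in the plant, which lowers the level of the matching mRNA. Linkage studies in cotton have placed loci for nulliplex and short-branch types on chromosome D07, which is why neighbouring genes of this chromosome were examined for differences between the strains. The order of genes was taken from the number in the ID, and positions in base pairs were not used. None of the D07 IDs could be paired with a gene name: 0 of 2223 matched the 99454 RefSeq entries for assembly Gossypium_hirsutum_v2.1. Genes are therefore given by ID, without a role, the labelled tissue was not checked against marker genes, and the level of GhBRC1 itself was not analysed here.

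The library labelled 3798 control 3 stood apart from its group. Over all tested genes its mean correlation was 0.962 with the JX controls and 0.931 with the other 3798 controls. Over the 596 D07 genes called between the control groups, it lay nearer the JX controls than the other 3798 controls in 418 genes (70.1%), against 2.68 to 3.86% of genes for the other 3 libraries of its group. These genes were called from the same libraries, so the low shares of those 3 partly follow from the choice of genes. Libraries 3798 silenced 4 and JX silenced 4 also lay nearer the JX controls in more of these genes than their groups did, in 55.2% and 70.1% against 15.8 to 30.9% and 35.1 to 46.0%. Counts of called genes and of runs, and the place of D07 among the D chromosomes, are given with and without 3798 control 3, as are the named genes in which it lay far from its group.

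Between the control groups, genes that differed were spread along the whole of D07, and more were higher in JX than lower. Of 1812 genes, 596 were called (32.9%, limma, Benjamini-Hochberg adjusted p under 0.05 over all tested genes), 367 higher in JX and 229 lower. The share called was 29.8% of all tested genes, with 17.6% higher and 12.2% lower. On the other D chromosomes it was 31.7%, with 19.2% higher and 12.5% lower, so the D07 share was near the background. The libraries also differed in level: mean log2(FPKM + 0.5) of D07 genes was 2.56 to 2.58 in JX controls. It was 2.45, 2.44, 2.55 and 2.47 in 3798 controls. Over the other D chromosomes these means were 2.52 to 2.53, and 2.43, 2.43, 2.51 and 2.44. What this shift adds to the lean toward JX, in calls or in runs, was not tested. In such bulk samples, fewer cells of a type and less RNA per cell cannot be told apart. The difference was at least 2-fold in 121 D07 genes (6.68%), against 5.63% of all tested genes and 5.98% on the other D chromosomes. All libraries of either group lay above all libraries of the other in 494 D07 genes (27.3%), against 25.1% of all tested genes and 26.5% on the other D chromosomes. Differences were small in most genes, with a median absolute log2 difference of 0.61 among those called. All log2 differences are of log2(FPKM + 0.5), which understates the change of low genes. Without 3798 control 3, 774 genes were called, 478 higher and 296 lower (42.7% of D07, 41.1% of the other D chromosomes and 38.8% of all tested genes). Of the called genes some passed the filter only through the side where they were higher, with fewer than 4 libraries at 0.5 FPKM on the other side. For such genes the filter itself favours a difference. They were 19 of the 367 and 6 of the 229, and 4 of the 73 genes in runs described below.

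Genes higher in JX controls included Gh_D07G050500 and Gh_D07G257100. Gh_D07G050500 was at 9.65, 7.77, 9.87 and 9.91 FPKM in the 3798 controls and at 17.4, 15.8, 15.96 and 14.2 FPKM in the JX controls. All JX controls were above all 3798 controls, by a log2 difference of 0.74 ± 0.11 (SE is the standard error, limma adjusted p = 0.00187). Gh_D07G257100 was at 3.03, 2.84, 4.58 and 2.94 FPKM in the 3798 controls, with 3798 control 3 the highest, and at 6.56, 6.24, 6.74 and 5.97 FPKM in the JX controls. These groups did not overlap either, and the log2 difference was 0.86 ± 0.13 (SE, limma adjusted p = 0.0019).

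Genes lower in JX controls included Gh_D07G058500 and Gh_D07G159200. Gh_D07G058500 was at 9.62, 7.47, 4.55 and 7.66 FPKM in the 3798 controls and at 1.39, 2.05, 2.19 and 2.02 FPKM in the JX controls. The JX controls were all lower, by a log2 difference (± SE) of -1.67 ± 0.23 (limma adjusted p = 0.00159). Gh_D07G159200 was at 26.5, 32.1, 13.7 and 25.6 FPKM in the 3798 controls and at 6.999, 9.19, 9.09 and 8.22 FPKM in the JX controls. It was lower in every JX control, with a log2 difference (± SE) of -1.44 ± 0.20 (limma adjusted p = 0.00165), and 3798 control 3 was the lowest of the 3798 controls for both genes.

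The genes with the largest called differences, picked out after their values were seen, were Gh_D07G130500 on the higher side and Gh_D07G010500 on the lower. Gh_D07G130500 was at 41.2, 48.4, 53.9 and 53.7 FPKM in the JX controls and at 5.54, 4.25, 30.5 and 6.85 FPKM in the 3798 controls. The 3798 control 3 was thus far above the others yet below every JX control, and the log2 difference was 2.46 ± 0.57 (SE, limma adjusted p = 0.00652). Gh_D07G010500 was at 1.304, 3.78, 2.96 and 2.21 FPKM in the JX controls and at 48.2, 47.002, 7.27 and 47.02 FPKM in the 3798 controls. Here 3798 control 3 was again the closest to JX, and the log2 difference was -3.38 ± 0.54 (SE, limma adjusted p = 0.00198). With that library left out, the log2 differences were 3.06 and -4.04 (limma adjusted p = 0.00025 and 9.36e-06). In silenced plants Gh_D07G010500 was at 14.3, 18.3, 10.6 and 7.02 FPKM in 3798 and at 11.5, 17.5, 15.7 and 6.098 FPKM in JX, and these groups overlapped.

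**Figure D1:**
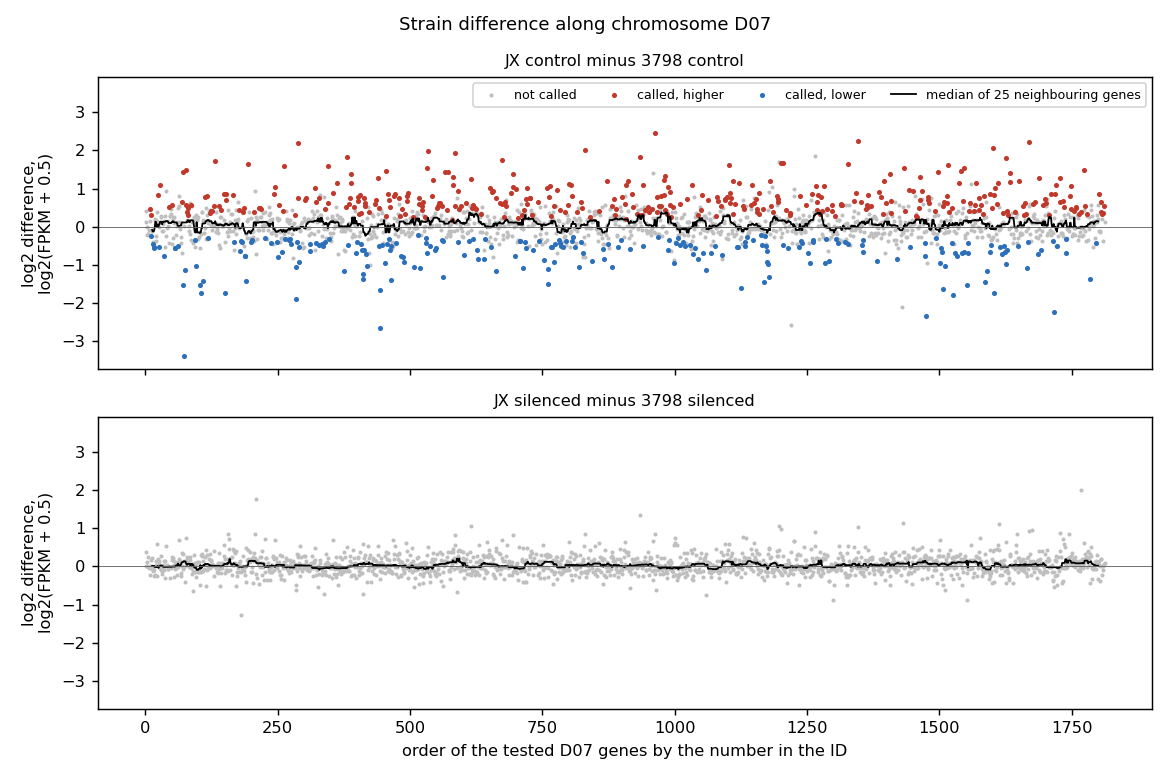
Log2 difference between JX and 3798, of log2(FPKM + 0.5), for each of the 1812 tested D07 genes in the order of the number in the ID, in controls (top) and in silenced plants (bottom). Red and blue points are genes called higher and lower in JX, grey points are not called, and the line is the median of 25 neighbouring genes. In controls 596 called genes are spread along the chromosome, and in silenced plants none is called.

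Neighbouring genes that differed together formed short runs. A run was taken as 3 or more tested genes that follow each other by ID number, all called and all in the same direction. In controls D07 held 24 runs with 73 genes, 17 runs (52 genes) higher in JX and 7 runs (21 genes) lower. Of the 17 higher runs 16 had 3 genes and 1 had 4, and all 7 lower runs had 3. Genes in runs made up 4.03% of the tested D07 genes, against 2.93% on the other D chromosomes together, where single chromosomes ranged from 1.19 to 4.66% and the longest run had 6 genes. D07 thus had rank 2 of 13, after D13, with no test of that rank. The higher runs had median log2 differences of 0.38 to 1.15, and the lower runs of -1.67 to -0.37. The count depended on single libraries. It was 18, 21 and 24 genes without 3798 control 1, 2 or 4, 120 genes without 3798 control 3, and 30, 32 and 39 genes without JX control 1, 3 or 4.

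The longest run in controls was made of Gh_D07G132600, Gh_D07G132700, Gh_D07G132800 and Gh_D07G132900, all higher in JX, with no listed ID between them. Gh_D07G132800 varied little among the JX controls, at 23.7, 23.9, 23.7 and 24.1 FPKM, and was at 8.14, 6.31, 18.1 and 7.81 FPKM in the 3798 controls. The groups did not overlap, and the log2 difference was 1.32 ± 0.24 (SE, limma adjusted p = 0.00265). Gh_D07G132600 was at 12.1, 11.4, 14.5 and 13.5 FPKM in the JX controls and at 6.26, 5.15, 11.9 and 6.04 FPKM in the 3798 controls. The value of 3798 control 3 fell among the JX controls, and the log2 difference was 0.84 ± 0.19 (SE, limma adjusted p = 0.00549). Gh_D07G132900 was at 6.92, 7.17, 7.29 and 6.16 FPKM in the JX controls and at 4.52, 4.71, 6.21 and 4.52 FPKM in the 3798 controls. Again only 3798 control 3 reached the JX range, and the log2 difference was 0.44 ± 0.11 (SE, limma adjusted p = 0.0104).

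Gh_D07G132700, the second gene of that run, was low in both groups. It was at 1.49, 1.04, 0.965 and 2.54 FPKM in the JX controls and at 0, 0.289, 1.74 and 0 FPKM in the 3798 controls, where a pair of libraries were listed at 0. The groups overlapped through 3798 control 3, and the log2 difference was 1.24 ± 0.39 (SE, limma adjusted p = 0.0255). This gene was not called without 3798 control 1, 2 or 4, without JX control 1 or 4, or when only the control libraries were fitted, with adjusted p of 0.0527 to 0.0886, and the run was then broken. The gene passed the filter only through the JX libraries, so its p lends the run no support. When 3798 control 3 was left out, the log2 differences of the 4 genes in order were 1.08, 1.72, 1.63 and 0.54, all called (limma adjusted p of 1.17e-05 to 0.000961). In silenced plants no gene of the run was called, with log2 differences between JX and 3798 of 0.23, -0.18, 0.028 and -0.052 for the 4 genes in order.

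The longest run lower in JX controls was Gh_D07G058300, Gh_D07G058400 and Gh_D07G058500, chosen among 7 of the same length by the smallest median p. Gh_D07G058300 was at 21.1, 21.8, 16.6 and 18.4 FPKM in the 3798 controls and at 14.5, 15.2, 13.2 and 11.5 FPKM in the JX controls. The groups did not overlap, and the log2 difference was -0.50 ± 0.10 (SE, limma adjusted p = 0.00364). Gh_D07G058400 was at 2.09, 4.15, 0.379 and 26.3 FPKM in the 3798 controls, with replicate 4 far above the rest, and at 0.181, 0, 0.158 and 0.299 FPKM in the JX controls. All JX controls were below all 3798 controls, and the log2 difference was -2.66 ± 0.79 (SE, limma adjusted p = 0.0214). This gene, too, passed the filter only through the strain where it was higher. Without 3798 control 2 or 4 it was not called, with adjusted p of 0.0546 and 0.0512, and the run was then broken. The third gene, Gh_D07G058500, was described above.

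**Figure D2:**
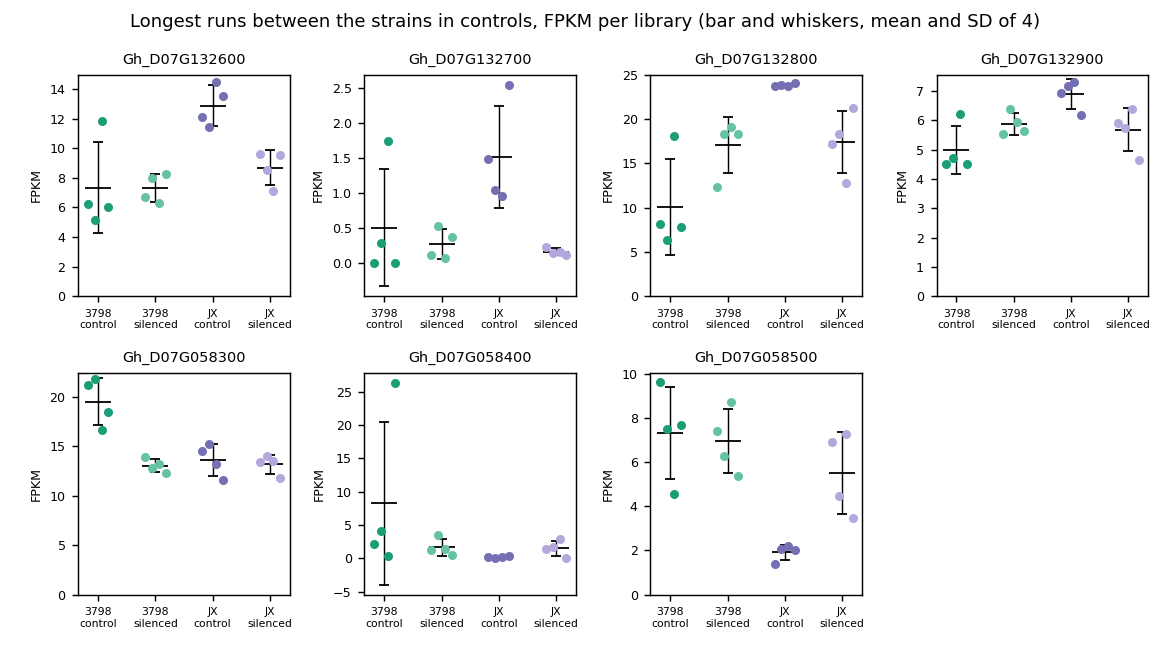
FPKM of the genes in the longest runs between the control groups, higher in JX (top row) and lower in JX (bottom row), in each of the 16 libraries, with bars for the mean and whiskers for the SD of 4 libraries. The vertical scale differs between panels. In the top row 1 of the 3798 controls, replicate 3, lies near or among the JX controls, and the 2 groups of silenced libraries overlap in every panel.

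Windows of 25 neighbouring tested genes gave a wider view. The fullest window in controls held 18 called genes of 25, between Gh_D07G051800 and Gh_D07G055700, where fullest windows on the other D chromosomes held 13 to 17. Of these 18 genes 9 were higher and 9 lower in JX, so the window did not lean to either strain. With windows of 50 genes the fullest on D07 held 27 called genes and had rank 3 of 13. The window with the highest median ran from Gh_D07G130500 to Gh_D07G134000, with a median log2 difference of 0.38 and 18 of 25 genes above 0, and it contained the run of 4 genes described above. That value had rank 8 of 13. The lowest median of a D07 window was -0.24, with rank 12 of 13. The fullest window held 20 called genes without 3798 control 3, where the others reached 16 to 20, and the highest window median was 0.45, with rank 6. Split into 4 equal blocks of 453 tested genes, in ID order, D07 had 30.7%, 35.3%, 33.8% and 31.8% of genes called. The number higher in JX was 73 of 139 called in the first block, and 96 of 160, 98 of 153 and 100 of 144 in the others.

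Values of adjacent genes were weakly related. The correlation between the log2 differences of neighbours, over 1811 pairs, was 0.097 on D07 and between -0.00084 and 0.102 on the other D chromosomes. The pairs share libraries and genes, so this is a description only. The median log2 difference of all tested D07 genes was 0.077, against 0.05 over the other D chromosomes together, and single other D chromosomes ranged from 0.037 to 0.07, so that of D07 was the highest of 13. Leaving out 3798 control 3, the correlation was 0.105, against -0.0089 to 0.103, and the median 0.094, against 0.047 to 0.084, both the highest of 13 and not tested. All of the medians with every library included were smaller than the median standard error of a single gene, 0.157. That error does not measure the spread of a median over a chromosome.

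In silenced plants no D07 gene was called between JX and 3798 (0 of 1812, and 0.0% of all tested genes, limma). There were 146 D07 genes with an unadjusted p under 0.05 (8.06%, against 7.89% of all tested genes), and groups did not overlap in 83 (4.58%, against 4.45%). There was no run. The interaction, which asks whether the strain difference itself changed between control and silenced plants, also called no D07 gene (0 of 1812, limma), against 0.00363% of all tested genes. An unadjusted p under 0.05 was found for 428 D07 genes (23.6%), against 21.7% of all tested genes and 22.4% on the other D chromosomes. Without 3798 control 3 the interaction called 320 D07 genes (17.7%), against 16.8% on the other D chromosomes and 15.6% of all tested genes. Without JX silenced 4 it called 1. The count of interaction calls thus turned on whether 3798 control 3 was included.

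The genes with the smallest p between silenced groups did not pass the threshold. Gh_D07G252700 was listed at 0 in all 8 controls. It was at 0, 0, 0.591 and 0.0141 FPKM in silenced 3798 and at 1.98, 2.61, 3.86 and 0.596 FPKM in silenced JX. The gene passed the filter only through silenced JX, the side where it was higher, so its p-values are given as a description. Every silenced JX library was above every silenced 3798 library, with a log2 difference (± SE) of 2.01 ± 0.33 (limma adjusted p = 0.163). This gene was called without JX silenced 4 (limma adjusted p = 0.008), and also when 3798 control 3, 3798 silenced 4 and JX silenced 4 were all left out (limma adjusted p = 0.0239). The silenced groups also did not overlap for Gh_D07G021300, with means ± SD of 4.98 ± 0.764 FPKM in JX and 2.603 ± 0.738 FPKM in 3798 (n = 4 each, limma adjusted p = 0.471), nor for Gh_D07G023800, with 3.39 ± 0.375 and 8.89 ± 1.31 FPKM (limma adjusted p = 0.471). For Gh_D07G169300 the means were 1.495 ± 0.266 and 2.31 ± 0.405 FPKM, and the groups overlapped (limma adjusted p = 0.515).

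For the interaction, the 4 genes named by smallest p did not pass, and all 4 passed when 3798 control 3 was left out. Of these, Gh_D07G093500 passed the filter only through the JX controls and Gh_D07G116800 only through the 3798 controls. Those were the groups where they were highest, so their p-values are given as a description. Gh_D07G034500 was at 17.2, 16.8, 12.8 and 10.03 FPKM in JX controls and at 6.43, 5.84, 3.31 and 5.95 FPKM in silenced JX, against 4.46, 3.32, 7.52 and 2.999 FPKM in 3798 controls and 6.66, 8.14, 5.05 and 8.204 FPKM in silenced 3798. JX controls were thus above every other library, and the interaction was -1.95 ± 0.37 on the log2 scale (SE, limma adjusted p = 0.0785). Gh_D07G093500 had the same order of groups at a lower level, with means ± SD of 0.946 ± 0.262 FPKM in JX controls and 0.308 ± 0.110, 0.220 ± 0.0856 and 0.391 ± 0.146 FPKM in silenced JX, 3798 controls and silenced 3798 (limma adjusted p = 0.0838). Gh_D07G116800 was highest in the 3798 controls, at 1.36 ± 0.308 FPKM, against 0.205 ± 0.0422 FPKM in silenced 3798, 0.526 ± 0.0874 FPKM in JX controls and 0.319 ± 0.119 FPKM in silenced JX (limma adjusted p = 0.0801). Gh_D07G037600 was lowest in the JX controls, at 1.43 ± 0.219 FPKM, and at 2.596 ± 0.424, 3.11 ± 0.259 and 2.43 ± 0.614 FPKM in silenced JX, 3798 controls and silenced 3798 (limma adjusted p = 0.0836).

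Averaged over control and silenced plants, 447 D07 genes were called between the strains (24.7%), against 21.4% of all tested genes and 22.9% on the other D chromosomes. Of these 283 were higher in JX and 164 lower, a balance that was 222 to 204 after quantile normalization of the libraries. This mean includes the same control libraries as the comparison above. Without 3798 control 3 it called 660 genes (36.4%, against 32.5% of all tested genes and 34.5% on the other D chromosomes). Without 3798 control 1, 2 or 4 it called 291, 289 and 284, without 3798 silenced 1 it called 267, and without JX silenced 4 it called 297. The genes in runs numbered 35, in 11 runs. This count was 111 without 3798 control 3 and 8 to 20 without 3798 control 1, 2 or 4, 3798 silenced 1, 2 or 3, JX control 1, 3 or 4, or JX silenced 4.

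Among genes called for this mean whose strains did not overlap in either state, Gh_D07G032400 and Gh_D07G169600 were higher in JX. Both were called in controls, and neither was called in silenced plants (limma adjusted p = 0.497 and 0.624). Gh_D07G032400 was at 3.84, 4.83, 3.898 and 4.599 FPKM in JX controls and 1.49, 1.69, 2.79 and 1.54 FPKM in 3798 controls, and at 2.74, 3.37, 2.31 and 4.34 FPKM in silenced JX and 1.79, 1.47, 1.44 and 2.296 FPKM in silenced 3798. The mean log2 difference was 0.87 ± 0.14 (SE, limma adjusted p = 0.00465), and 0.95 without 3798 control 3 (limma adjusted p = 0.00012). For Gh_D07G169600 it was 0.55 ± 0.093 (SE, limma adjusted p = 0.00549), with JX means ± SD of 7.26 ± 0.364 FPKM in controls and 6.12 ± 0.811 FPKM in silenced plants, against 3.996 ± 0.690 and 4.89 ± 0.736 FPKM in 3798.

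A pair of more abundant transcripts, Gh_D07G010800 and Gh_D07G025100, were called lower in JX for the mean and in controls, and were not called in silenced plants (limma adjusted p = 0.627 and 0.681). Gh_D07G010800 was at 105, 127, 116 and 116 FPKM in JX controls and 301, 298, 157 and 289 FPKM in 3798 controls, and at 174, 190.3, 173 and 136 FPKM in silenced JX and 252, 199, 217 and 218 FPKM in silenced 3798. The strains did not overlap in either state, and the mean log2 difference was -0.76 ± 0.13 (SE, limma adjusted p = 0.0053). For Gh_D07G025100 it was -0.92 ± 0.18 (SE, limma adjusted p = 0.00686), with JX means ± SD of 31.5 ± 4.49 FPKM in controls and 52.5 ± 5.81 FPKM in silenced plants, against 91.97 ± 35.3 and 70.2 ± 6.195 FPKM in 3798. In 3798 control 3 both genes were well below the other 3798 controls, and without it the mean log2 differences were -0.88 and -1.10 (limma adjusted p = 2.67e-05 and 1.47e-05).

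The longest run for the mean of both states, picked out after its values were seen, was Gh_D07G011200 to Gh_D07G011900, 5 genes higher in JX. It starts close to Gh_D07G010500 and Gh_D07G010800, which were lower in JX controls. Gh_D07G011200 was at 12.3, 8.41, 13.2 and 14.1 FPKM in JX controls and 2.63, 2.89, 9.999 and 2.82 FPKM in 3798 controls, again with 3798 control 3 within the JX range. The mean log2 difference was 1.11 ± 0.27 (SE, limma adjusted p = 0.0131). Those of Gh_D07G011300, Gh_D07G011600, Gh_D07G011800 and Gh_D07G011900 were smaller, at 0.21, 0.28, 0.23 and 0.32, with limma adjusted p of 0.0175, 0.0158, 0.0197 and 0.0206. Within the run 1 listed ID was not tested. Gh_D07G011900 was not called after quantile normalization (limma adjusted p = 0.0511), which shortened the run. All 5 were called without 3798 control 3, with Gh_D07G011200 at a log2 difference of 1.32.

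In 3798, most of the D07 genes called on silencing rose. Of 1812 genes 223 were called (12.3%, limma), 138 higher and 85 lower in silenced plants. The background was 12.8% of all tested genes, with 7.51% higher and 5.28% lower, and 13.2% on the other D chromosomes. The change was at least 2-fold in 57 D07 genes (3.15%, against 4.17% of all tested genes), and groups did not overlap in 284 (15.7%, against 16.2%). Without 3798 control 3 the count was 294 (16.2%, against 15.7% of all tested genes and 16.3% on the other D chromosomes), and without 3798 silenced 3 it was 148. Of the 138 higher genes 21 passed the filter only through silenced libraries, and of the 85 lower genes 16 only through controls.

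Between silenced and control JX, 521 D07 genes were called (28.8%), against 28.3% of all tested genes and 29.2% on the other D chromosomes. Of these 248 rose and 273 fell, where the background was 14.6% higher and 13.7% lower, and 14.7% and 14.5% on the other D chromosomes. At least 2-fold changes numbered 153 (8.44%, against 8.41%). Groups did not overlap in 581 genes (32.1%), against 29.7% of all tested genes and 31.0% on the other D chromosomes. Without 3798 control 3, which enters through the shared estimate of the spread, 617 genes were called (34.1%, against 32.5% of all tested genes and 33.6% on the other D chromosomes). The genes that passed the filter only through the label where they were higher were 23 of the 248 and 26 of the 273. The difference between the strains in their response was tested by the interaction above. Averaged over both strains 549 D07 genes were called (30.3%, against 28.7% of all tested genes and 29.6% on the other D chromosomes), 282 higher and 267 lower, a balance that turned to 271 and 283 under median-ratio scaling and to 267 and 295 under quantile normalization. This mean called 537 genes without 3798 control 3 (29.6%, against 27.6% of all tested genes and 28.5% on the other D chromosomes).

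Genes called in both strains mostly moved the same way. On D07 73 were higher and 42 lower in silenced plants of both strains, 4.03% and 2.32% of the tested genes, against 4.57% and 2.94% of all tested genes. The 73 were 52.9% of those higher in 3798 and 29.4% of those higher in JX, against 60.8% and 31.3% over all tested genes. The 42 were 49.4% of those lower in 3798 and 15.4% of those lower in JX, against 55.7% and 21.5%. A single D07 gene, Gh_D07G244400, was called in opposite directions, as were 52 over all tested genes and 21 on the other D chromosomes. It was at 3.62, 3.18, 4.96 and 2.97 FPKM in 3798 controls and 5.41, 4.01, 5.52 and 5.704 FPKM in silenced 3798, and at 7.88, 6.43, 6.72 and 6.82 FPKM in JX controls and 5.05, 4.69, 4.73 and 5.75 FPKM in silenced JX. Its log2 changes were 0.45 ± 0.14 and -0.43 ± 0.14 (SE, limma adjusted p = 0.0468 and 0.0333), and the first call was lost in 16 alternative fits and the second in 6. Its interaction did not pass (limma adjusted p = 0.0838).

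**Figure D3:**
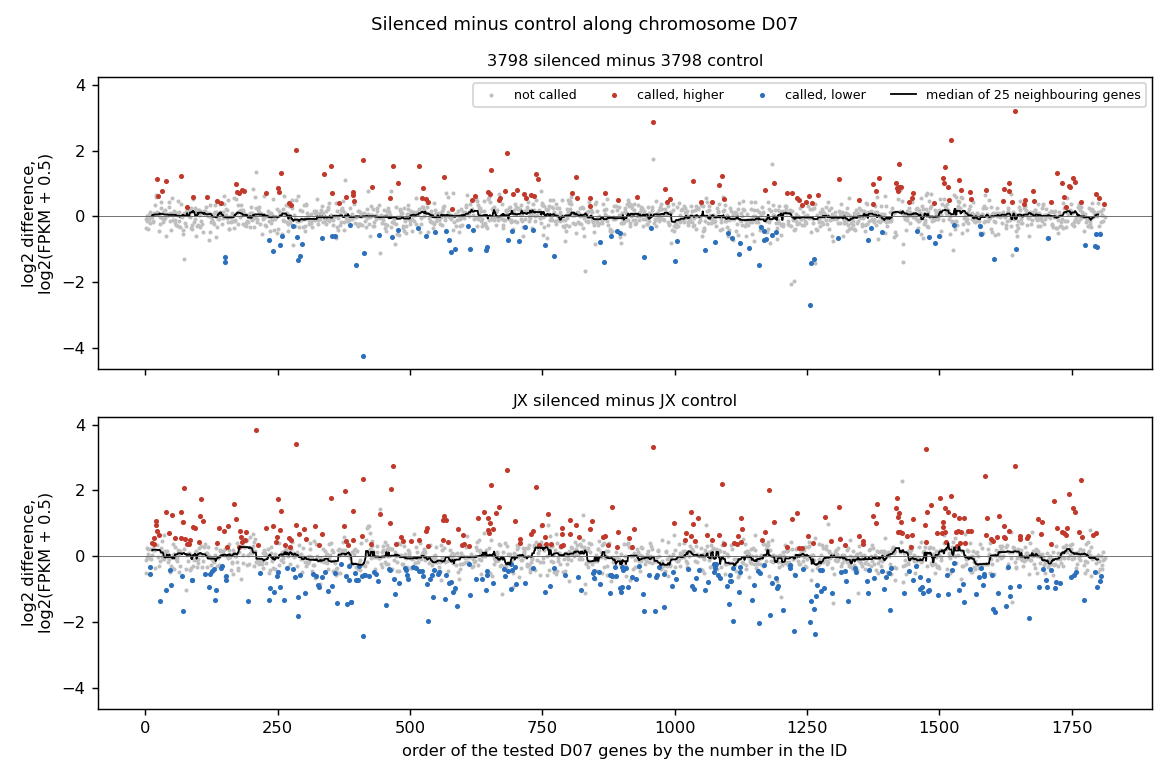
Log2 change on silencing, of log2(FPKM + 0.5), for each of the 1812 tested D07 genes in the order of the number in the ID, in 3798 (top) and in JX (bottom). Red and blue points are genes called higher and lower in silenced plants, grey points are not called, and the line is the median of 25 neighbouring genes. There are 223 called genes in 3798 and 521 in JX, spread along the chromosome in both.

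The rising genes named next had the smallest p on silencing, in 3798, JX or their mean, among called genes without overlap. That their groups lay apart is thus part of the naming rule. Gh_D07G216000 was at 2.65, 2.36, 3.51 and 2.26 FPKM in 3798 controls and 14.3, 14.3, 15.9 and 17.1 FPKM in silenced 3798, and at 3.51, 3.36, 3.59 and 2.84 FPKM in JX controls and 14.2, 12.1, 14.5 and 11.4 FPKM in silenced JX. It rose by a log2 of 2.33 ± 0.12 in 3798 and 1.82 ± 0.12 in JX (SE, limma adjusted p = 2.25e-09 and 5.3e-08). Gh_D07G250600 rose too, from 5.43, 5.35, 5.07 and 4.804 FPKM to 13.04, 12.4, 12.6 and 11.4 FPKM in 3798 and from 4.58, 3.78, 4.69 and 4.86 FPKM to 13.4, 11.96, 14.02 and 12.999 FPKM in JX. The log2 changes were 1.18 ± 0.087 and 1.45 ± 0.087 (SE, limma adjusted p = 1.46e-07 and 1.13e-08). Gh_D07G045200 was at 2.61 ± 0.0713 FPKM in JX controls and 10.01 ± 0.459 FPKM in silenced JX (mean ± SD, n = 4), with the groups apart and a log2 change (± SE) of 1.76 ± 0.12 (limma adjusted p = 4.22e-08).

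Neighbouring genes Gh_D07G173900 and Gh_D07G174000 fell in both strains. Gh_D07G174000 was at 31.8, 29.6, 27.01 and 28.4 FPKM in 3798 controls and 10.9, 11.1, 10.7 and 9.78 FPKM in silenced 3798, and at 29.6, 31.2, 29.2 and 25.3 FPKM in JX controls and 11.1, 10.4, 9.38 and 12.3 FPKM in silenced JX. The groups lay far apart in both strains, with log2 changes of -1.42 ± 0.092 and -1.38 ± 0.092 (SE, limma adjusted p = 2.87e-08 and 4.23e-08). Gh_D07G173900 was at 75.5, 78.2, 35.1 and 74.6 FPKM in 3798 controls, where replicate 3 was lower than the rest and within the JX range, and at 8.56, 8.42, 9.31 and 11.3 FPKM in silenced 3798. JX had 25.7, 44.8, 34.3 and 27.1 FPKM in controls and 9.04, 8.88, 5.39 and 7.68 FPKM after silencing. The log2 changes were -2.68 ± 0.24 and -2.01 ± 0.24 (SE, limma adjusted p = 1.8e-06 and 3.72e-05). Without 3798 control 3 the change in 3798 was -2.96 (limma adjusted p = 5.07e-08). The next gene, Gh_D07G174100, looked at after its values were seen, was called on silencing only for the mean of both strains, with a log2 change (± SE) of -0.60 ± 0.20 (limma adjusted p = 0.0313), which made these 3 genes a run there. That call was lost in 10 alternative fits.

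The largest called changes, picked out after their values were seen, were genes at low levels in either the control or the silenced libraries. Gh_D07G233200 was at 0, 0, 0.0207 and 0 FPKM in 3798 controls and 4.42, 4.91, 3.45 and 4.003 FPKM in silenced 3798, and at 1.06, 0, 0 and 0.00609 FPKM in JX controls and 2.96, 4.13, 5.01 and 3.85 FPKM in silenced JX. It rose in both strains. Gh_D07G053600 went the other way, from 11.4, 12.3, 5.96 and 19.05 FPKM to 0.122, 0.253, 0.149 and 0 FPKM in 3798 and from 5.56, 5.597, 2.24 and 5.55 FPKM to 0.0724, 0.195, 0.425 and 1.54 FPKM in JX. It fell in both strains. These 2 genes passed the filter only through the label where they were higher, so their changes are given as a description. Gh_D07G027400 was at 0.366, 0.561, 0.292 and 0.317 FPKM in JX controls and 10.5, 16.98, 21.96 and 5.18 FPKM in silenced JX, and it rose there (log2 change 3.83 ± 0.46, SE, limma adjusted p = 4.42e-05). Strain 3798 had 0.775, 0.871, 0.860 and 1.299 FPKM in controls and 1.47, 1.34, 8.64 and 4.82 FPKM after silencing, groups that did not overlap but did not pass the threshold (limma adjusted p = 0.0701).

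No D07 gene was on in all 8 libraries of a label or strain, at 1 FPKM or more, and over 8-fold below the lowest of them in all of the other 8. Over all tested genes 95 were on in silenced and 62 on in control plants, 26 and 18 of them on the other D chromosomes, and D03 was the other D chromosome without one. Between the strains no gene of the whole table was on/off. At over 4-fold 1 D07 gene, Gh_D07G129800, was on in silenced plants, among 132 over all tested genes and 40 on the other D chromosomes. It was at 2.58, 2.42, 4.91 and 3.99 FPKM in 3798 and 5.29, 4.72, 8.61 and 4.71 FPKM in JX, against 0.0975, 0, 0 and 0 and 0.478, 0, 0.0836 and 0 FPKM in the controls.

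Runs were also found between silenced and control plants, mostly of higher genes. In 3798 D07 held 2 runs with 6 genes, both higher in silenced plants, 0.331% of its tested genes, against 0.661% on the other D chromosomes together, whose single values ranged from 0 to 1.35%. Of these 6 genes 2 passed the filter only through silenced libraries, Gh_D07G051100 and Gh_D07G198600. They lie in different runs, and their calls lend those runs no support. In JX D07 held 19 runs with 63 genes, 11 of them (37 genes) higher and 8 (26 genes) lower, 3.48% against 2.81%, with other D chromosomes from 1.56 to 3.54%. There 4 of the 37 and 2 of the 26 genes passed the filter only through the label where they were higher. For the mean of both strains there were 25 runs with 89 genes, 4.91%, the highest of 13, where the others ranged from 2.28 to 4.78%. Without 3798 control 3 that mean had 20 runs with 71 genes, 3.92%, against 1.77 to 4.56% on the others, rank 4 of 13. The JX count fell to 26, 34 and 38 genes without JX control 3, JX control 1 and JX silenced 2, and rose to 95 without 3798 control 3. The count in 3798 ranged from 0 genes without 3798 silenced 3 to 15 without 3798 control 3, was 3 without 3798 control 2 or 3798 silenced 2, and was 13 without 3798 silenced 4.

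The longest run in JX was 6 genes from Gh_D07G198600 to Gh_D07G199600, all higher in silenced plants, and its first 3 genes were also 1 of the 2 runs in 3798. Among these IDs 5 listed ones were not tested. Gh_D07G198800 was at 1.08, 0.927, 0.743 and 0.799 FPKM in JX controls and 4.15, 4.33, 5.52 and 2.97 FPKM in silenced JX, and at 1.73, 2.39, 1.29 and 2.803 FPKM in 3798 controls and 4.12, 4.44, 4.99 and 2.75 FPKM in silenced 3798. JX groups did not overlap while those of 3798 did, and the log2 changes were 1.75 ± 0.21 in JX and 0.85 ± 0.21 in 3798 (SE, limma adjusted p = 3.76e-05 and 0.0137). Gh_D07G198900, the most abundant of the first 3, was at 18.6, 14.8, 11.1 and 11.9 FPKM in JX controls and 23.1, 20.1, 28.4 and 22.1 FPKM in silenced JX, and at 15.5, 11.2, 13.2 and 17.9 FPKM in 3798 controls and 22.9, 24.7, 25.7 and 25.6 FPKM in silenced 3798. Silenced libraries were above all controls in both strains, with log2 changes of 0.73 ± 0.16 and 0.78 ± 0.16 (SE, limma adjusted p = 0.00362 and 0.00393).

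Gh_D07G199200 was at 10.6, 15.7, 11.01 and 14.5 FPKM in JX controls and 25.3, 46.4, 23.3 and 41.8 FPKM in silenced JX, and at 12.4, 4.995, 13.9 and 5.703 FPKM in 3798 controls and 26.9, 33.1, 23.7 and 22.9 FPKM in silenced 3798. In both strains the groups lay apart, with log2 changes of 1.33 ± 0.30 and 1.59 ± 0.30 (SE, limma adjusted p = 0.00469 and 0.00224). Gh_D07G198600 was low, at 0.107, 0.0448, 0 and 0.0584 FPKM in JX controls and 1.52, 0.762, 1.67 and 0.476 FPKM in silenced JX, and it was called higher in both strains. It reached 0.5 FPKM in silenced libraries only, so it passed the filter through the side where it was high, and its call lends the runs of 6 and 3 genes no support. Gh_D07G199100 rose in JX, from 0.893 ± 0.158 to 2.91 ± 1.36 FPKM (mean ± SD, n = 4, limma adjusted p = 0.00278), while 3798 had 1.55 ± 0.401 FPKM in controls and 2.47 ± 0.557 FPKM after silencing, which did not pass (limma adjusted p = 0.191). That gene ended the run in 3798. Gh_D07G199600 rose in both, from 2.58 ± 0.757 to 4.64 ± 1.44 FPKM in JX and from 2.06 ± 0.365 to 4.33 ± 1.05 FPKM in 3798 (limma adjusted p = 0.0187 and 0.00988). Its JX call was lost without JX control 3, JX control 4 or JX silenced 2, with adjusted p of 0.0525 to 0.059. Without 3798 silenced 3, Gh_D07G198600 and Gh_D07G198800 were no longer called in 3798, and that run was lost.

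**Figure D4:**
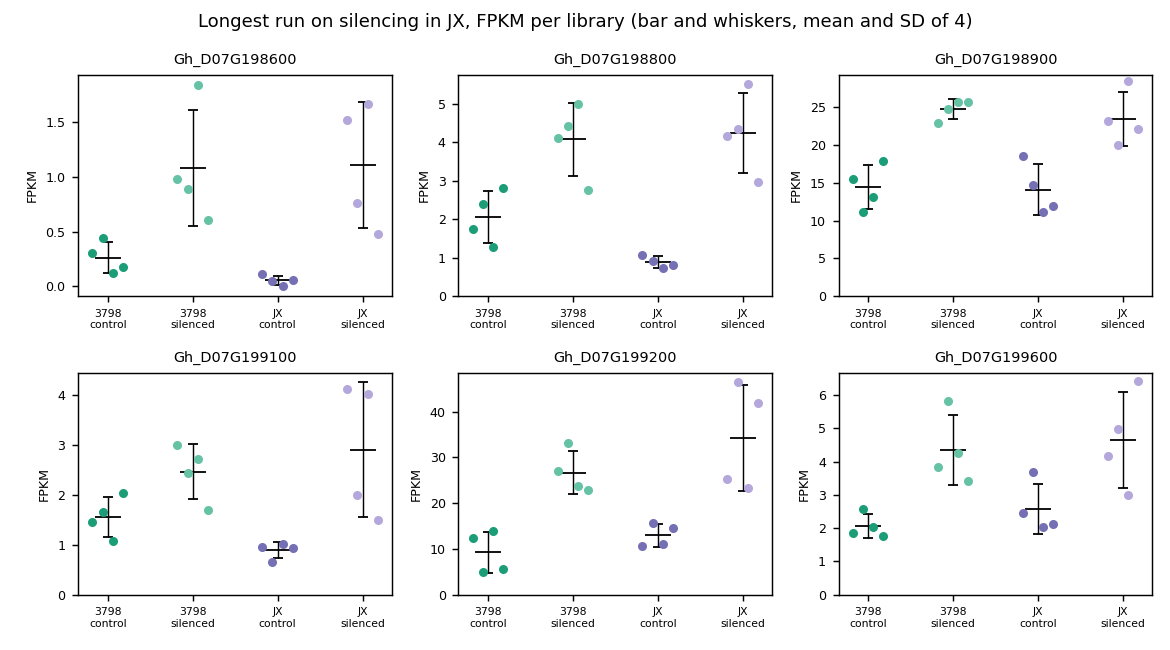
FPKM of the 6 genes from Gh_D07G198600 to Gh_D07G199600 in each of the 16 libraries, with bars for the mean and whiskers for the SD of 4 libraries. The vertical scale differs between panels. In JX 5 of the 6 genes have silenced libraries above all controls, and for Gh_D07G199600 the groups overlap.

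For the mean of both strains the longest run, picked out after its values were seen, was 7 genes from Gh_D07G212500 to Gh_D07G214100, all higher in silenced plants, with 6 listed IDs among them not tested. Gh_D07G213800 was at 0, 0, 0 and 0.117 FPKM in 3798 controls and 0, 0, 0.0694 and 0 FPKM in JX controls, against 1.201, 1.53, 0.737 and 0.680 FPKM in silenced 3798 and 1.12, 1.21, 0.727 and 0.721 FPKM in silenced JX. Controls were thus at or close to 0. This gene and Gh_D07G212600 passed the filter only through silenced libraries, so the filter itself favoured a difference and neither supports the run. For the mean of both strains that holds for 7 of the 53 genes in higher runs and 3 of the 36 in lower runs. Gh_D07G212500 rose by a mean log2 of 1.03 ± 0.11 (SE, limma adjusted p = 4.82e-06), from 2.39 ± 0.465 to 6.03 ± 1.34 FPKM in 3798 and from 3.68 ± 0.429 to 7.24 ± 0.729 FPKM in JX. The others, Gh_D07G213100, Gh_D07G212600, Gh_D07G213900, Gh_D07G214000 and Gh_D07G214100, had mean log2 changes of 0.70, 0.58, 0.54, 0.26 and 0.23, with limma adjusted p of 0.000614, 0.018, 0.00798, 0.0276 and 0.0388. The calls of Gh_D07G214000 and Gh_D07G214100 were lost in 5 and 11 alternative fits, and that of Gh_D07G212600 after quantile normalization (limma adjusted p = 0.061), which broke the run.

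In windows of 25 tested genes, the fullest on D07 held 8 called genes for silencing in 3798, where other D chromosomes reached 8 to 13, and 14 for silencing in JX, where they reached 13 to 18. The highest window median in JX, a log2 change of 0.39 between Gh_D07G211900 and Gh_D07G216900, covered the run of 7 genes and Gh_D07G216000. It had rank 6 of 13. In 3798 the highest window median was 0.23, between Gh_D07G215400 and Gh_D07G218700, which also held Gh_D07G216000, and it had rank 12 of 13.

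As a whole, D07 transcripts kept almost the same weight in every library. They made up 6.96 to 7.21% of the FPKM of all tested D-chromosome genes. The mean log2(FPKM + 0.5) of D07 genes exceeded that of the other D chromosomes by 0.0285 ± 0.0113 in 3798 controls, 0.0193 ± 0.00543 in silenced 3798, 0.0438 ± 0.00534 in JX controls and 0.0258 ± 0.011 in silenced JX (mean ± SD, n = 4). JX controls were the highest group, yet their lowest library (0.0371) fell below the highest 3798 control (0.0374, replicate 3) and the highest silenced JX library (0.041), so the groups overlapped.

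Set beside the other D chromosomes, D07 had rank 2 of 13 in the share called between strains in controls and rank 1 for the mean of both states, at 24.7% against 21.7 to 24.3% on the others. It had rank 10 for silencing in 3798 and rank 7 for silencing in JX. The shares of single other D chromosomes ranged from 29.7 to 33.0% in controls, from 11.7 to 14.3% in 3798 and from 26.9 to 32.4% in JX. For genes in runs the ranks of D07 were 2, 2, 10 and 2 in the same order.

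These ranks changed without 3798 control 3. The share called in controls was then the highest of 13, at 42.72% against 39.3 to 42.69%, and so was that of the mean, at 36.4% against 32.6 to 35.8%. For silencing in 3798 and in JX the ranks were 8 and 5. The share of genes in runs had rank 3 in controls, at 6.62% against 4.14 to 8.19%, and rank 8 for silencing in 3798. It had rank 1 for the mean strain difference, at 6.13% against 2.95 to 4.83%, and for silencing in JX, at 5.24% against 2.29 to 4.95%. For the mean silencing change it fell from rank 1 to rank 4, at 3.92% against 1.77 to 4.56%. No rank was tested.

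**Figure D5:**
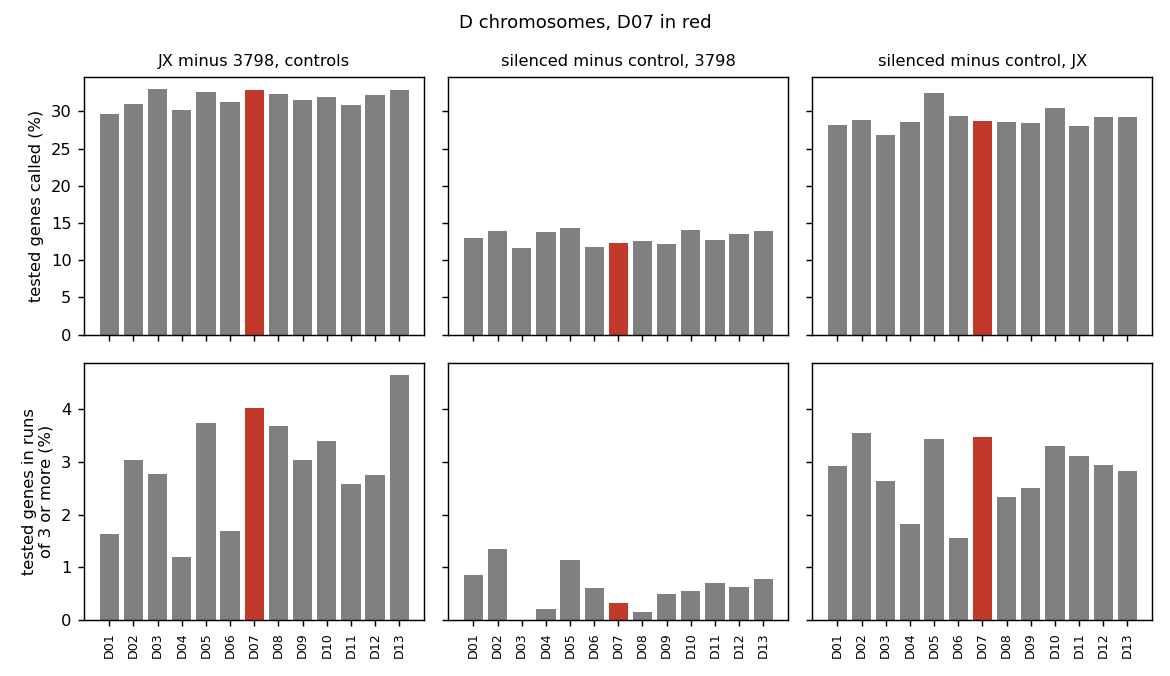
Share of tested genes called (top, percent) and share of tested genes in runs of 3 or more (bottom, percent) on each of the 13 D chromosomes, with D07 in red, for JX minus 3798 in controls and for silencing in 3798 and in JX. With all 16 libraries each D07 bar drawn lies within the range of the other 12, and in controls D07 has 32.9% of genes called and 4.03% in runs.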

How the data were processed

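The authors deposited 1 table of FPKM (the unit in its file name) for 70422 gene IDs in 16 mRNA libraries. Not given in the sources used here: aligner, counter, genome build, strandedness. Copies of a gene in the A and D subgenomes can be near-identical, and overlapping genes share reads, so values of such genes are uncertain. Columns were matched to samples by the code in each sample's description, groups came from the titles, 0 pairs of libraries held identical values, and the labels give no batch.

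Genes with 0.5 FPKM or more in 4 or more libraries were fitted on log2(FPKM + 0.5) with limma 3.58.1 in R 4.3.3 (trend, robust, 1 mean per group over all 16 libraries). Tests were two-sided, adjusted by Benjamini-Hochberg over 55040 genes, and called under 0.05. Runs and windows were counted in Python 3.11.15 (pandas 2.3.3, numpy 2.4.6), and figures were drawn with matplotlib 3.10.9. The procedure was tested on simulated data.

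Same-numbered libraries deviated together with correlations of -0.372 to 0.357 and were not treated as pairs. The text names per comparison the 2 genes with the smallest p in each direction among those called without overlap (by p alone where none was called), the longest runs and the IDs beside the filter limit, and says where a gene was picked after its values were seen. Members, lists and tests were chosen with earlier results of these data known. Alternatives were other pseudocounts, filters, scalings, thresholds, run rules, a replicate term, a fit to the compared groups only, and libraries left out.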

Additional observations from a re-analysis of the deposited data

Results flagged for a closer look

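Within groups of 4 libraries, the gap between the highest or lowest library and its neighbour was large against the group's whole range in 32 of 224 groups of values checked, over 55 genes named in the text and the mean D07 level. Chance gives such a gap in about 5% of groups, and the genes share libraries. Values below are FPKM, each with the range of the other 3 libraries of the group.

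The library 3798 control 3 was set apart in 12 of the 32. It was above the other 3798 controls for Gh_D07G257100 (4.58 against 2.84 to 3.03), Gh_D07G032400 (2.79 against 1.49 to 1.69), Gh_D07G132600 (11.9 against 5.15 to 6.26), Gh_D07G132700 (1.74 against 0 to 0.289), Gh_D07G132800 (18.1 against 6.31 to 8.14), Gh_D07G132900 (6.21 against 4.52 to 4.71), Gh_D07G011200 (9.999 against 2.63 to 2.89) and Gh_D07G130500 (30.5 against 4.25 to 6.85). It was below them for Gh_D07G010800 (157 against 289 to 301), Gh_D07G173900 (35.1 against 74.6 to 78.2) and Gh_D07G010500 (7.27 against 47.0 to 48.2). In each of these 11 genes its value lay between the other 3798 controls and the JX controls or within the range of the JX controls. What set this library apart was not tested.

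Other libraries were set apart upward for Gh_D07G252700 (3798 silenced 3, 0.591 against 0 to 0.0141), Gh_D07G023800 (JX control 4, 12.6 against 3.99 to 4.94), Gh_D07G058400 (3798 control 4, 26.3 against 0.379 to 4.15), Gh_D07G214100 (3798 silenced 4, 17.3 against 13.3 to 13.9), Gh_D07G129800 (JX silenced 3, 8.61 against 4.71 to 5.29), Gh_D07G130500 (3798 silenced 4, 19.9 against 5.03 to 7.17), Gh_D07G233200 (JX control 1, 1.06 against 0 to 0.00609) and Gh_D07G003600 (3798 silenced 3, 0.552 against 0.0622 to 0.115). They were set apart downward for Gh_D07G050500 (3798 control 2, 7.77 against 9.65 to 9.91), Gh_D07G169600 (3798 silenced 1, 3.78 against 5.23 to 5.28), Gh_D07G132800 (3798 silenced 1, 12.3 against 18.3 to 19.1), Gh_D07G011300 (JX control 2, 20.4 against 22.5 to 22.9), Gh_D07G011600 (3798 silenced 1, 9.85 against 12.3 to 12.7), Gh_D07G011900 (3798 control 1, 1.73 against 2.04 to 2.09), Gh_D07G053600 (JX control 3, 2.24 against 5.55 to 5.60), Gh_D07G117000 (3798 silenced 4, 0.287 against 0.606 to 0.666) and Gh_D07G117000 (JX control 4, 0.0306 against 0.0715 to 0.0797).

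For the following genes the other 3 libraries of the group were listed at 0, so any value set the library apart: Gh_D07G213800 at 0.117 in 3798 control 4, Gh_D07G213800 at 0.0694 in JX control 3, Gh_D07G129800 at 0.0975 in 3798 control 1 and Gh_D07G233200 at 0.0207 in 3798 control 3.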

How the results depend on the processing

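Most of the named results kept their direction and their side of the threshold: of 1591 alternative values for named genes 1518 did so, 63 no longer passed, 10 newly passed and none reversed. The counts of called genes and of runs moved more.

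At an adjusted p of 0.01 the called D07 genes were 277 for the strains in controls, 64 for their mean, 105 and 263 for silencing in 3798 and JX and 316 for its mean, and the genes in runs were 9, 0, 0, 14 and 33. With runs of 5 or more genes in place of 3 these were 0, 5, 0, 11 and 13. Fitting the compared groups only gave 45 genes in runs for the strains in controls, and 145 called and 3 in runs for silencing in 3798. With no untested ID within a run, and with no filter, runs held 21 genes for the mean strain difference and 3 for silencing in 3798, and with a mean of at least 1 FPKM the latter held 0. Without the 3 libraries apart (3798 control 3, 3798 silenced 4 and JX silenced 4), 1 gene, Gh_D07G252700, was called between silenced strains, 375 for the interaction, and runs held 164 genes for controls, 106 for the mean strain difference, 12 for silencing in 3798 and 127 in JX. Gh_D07G252700 passed the filter only through silenced JX, where it was higher. The on/off genes numbered 1 at over 4-fold, and the D07 level in JX controls was 0.0614 with a pseudocount of 0.1 and 0.0347 with 1. The cause of these shifts was not tested beyond the construction of each alternative.

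With single libraries left out, called genes ranged from 409 to 774 for controls, 0 to 1 for silenced strains (1 without JX silenced 4), 267 to 660 for their mean, 148 to 294 for silencing in 3798, 363 to 617 in JX, 469 to 612 for its mean and 0 to 320 for the interaction. Genes in runs ranged from 18 to 120 for controls, 8 to 111 for the mean strain difference, 0 to 15 and 26 to 95 for silencing in 3798 and JX and 62 to 100 for its mean.

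With the replicate number as a block, called genes were 575 for controls, 0 for silenced strains, 410 for their mean, 204 and 507 for silencing in 3798 and JX, 522 for its mean and 0 for the interaction. Of 24 same-numbered pairs of libraries 5 correlated above 0.1, the highest at 0.357. What same-numbered samples share is not given in the labels, and the block moved no count of calls by over 1.5 times.

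Depth is unknown, so no limit from counting can be given for genes listed at 0.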
